A study of Homo sapiens with 8 samples.

Results

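Translation initiation factors are the proteins that load the initiator tRNA and the ribosome onto a messenger RNA. Their genes were followed here in 143B and HOS, a pair of human osteosarcoma lines, between control cells (NC) and cells carrying the label sgNAT10. The series calls the latter a knockout of NAT10, an enzyme that acetylates cytidines in RNA to N4-acetylcytidine. The members were chosen by symbol: all those that start with EIF and a digit, without the kinases of the EIF2AK family and the eIF4E-binding proteins EIF4EBP. This gave 47 genes among the 13703 listed in either table, 46 of 12700 for 143B and 47 of 12810 for HOS. EIF2S3B was listed for HOS alone. All listed members passed the filter on low values, at least 1 FPKM in at least 2 libraries of a line, and were tested. In 143B, EIF5A2 passed only through the sgNAT10 libraries and EIF4E3 only through the controls, and in HOS EIF5AL1 passed only through the libraries labelled sgNAT10.

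Polyadenylated RNA was sequenced from 4 groups of 2 libraries, 8 in all: 143B NC, 143B sgNAT10, HOS NC and HOS sgNAT10. Neither a guide sequence nor a time after its delivery is given in the labels, and they do not say whether a group is a clone, a pool or separate cultures, so the p-values rest on a spread between libraries that may be technical. Both are established lines, and 143B was derived from HOS cells. FPKM, fragments scaled to transcript length and to the size of the library, is per length and lets genes be compared within a library. The 2 tables were normalized separately, so levels were not tested between lines.

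Initiation starts when eIF2, a trimer of alpha, beta and gamma subunits, binds GTP and the initiator tRNA. With eIF1, eIF1A, eIF3 and eIF5 it joins the small ribosomal subunit. The eIF4 group binds the cap of the mRNA and unwinds its leader, eIF5 triggers GTP hydrolysis at the start codon, and eIF5B brings in the large subunit. eIF2B recharges eIF2 with GTP, and stress kinases block that step by phosphorylating eIF2 alpha. Dividing cells, tumour cells among them, carry many of these factors at high levels.

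NAT10, on chromosome 11 from 34105602 to 34147670 (plus strand of GRCh38), measured 16.1 and 19.9 FPKM in the 143B controls against 9.05 and 7.19 in the libraries labelled sgNAT10 (log2 -1.06, SE 0.31, adjusted p = 0.026). That call was lost under median-ratio scaling (adjusted p = 0.061) and without NC replicate 2 (0.067), sgNAT10 replicate 1 (0.11) or sgNAT10 replicate 2 (0.23). In HOS it measured 14.9 and 16.2 FPKM in the controls against 21.1 and 19.1 in the libraries labelled sgNAT10 (log2 0.35, SE 0.10, adjusted p = 0.0054), a call lost under 5 of 16 alternatives, with a value of -0.08 after correction for length and GC content (adjusted p = 0.30). The HOS libraries labelled sgNAT10 thus did not hold less NAT10 RNA than their controls, and directions given for HOS compare libraries as labelled. Log2 changes are sgNAT10 minus NC of log2(FPKM + 1), tested with limma, and adjusted p-values are over all genes of the table. Library sums of listed FPKM ran from 484793 to 798137, and read depth is unknown. The libraries of a group correlated at 0.979 to 0.986 in 143B and at 0.995 to 0.997 in HOS (Pearson, across genes, which are not independent replicates). Of the mesenchymal and bone markers examined, 6 of 8 were listed for 143B, led by VIM, and 7 of 8 for HOS. PTPRC and CD3E of the blood list and VWF and KDR of the endothelial list stood in neither table. Of the blood list LYZ, at 0.69 and 1.30 FPKM in the 143B controls, stood at 7.33 and 6.89 under sgNAT10 (log2 2.04, adjusted p = 0.0027), and CD14, at 2.06 and 1.45 FPKM, stood at 0.08 and 0.00 (log2 -1.40, adjusted p = 0.0018). Of the endothelial list PECAM1, CDH5 and TEK were listed for HOS, each at 1.40 FPKM or less, with CDH5 called higher (log2 0.65) and TEK lower (log2 -0.64). LYZ and CD14 in 143B and CDH5 and TEK in HOS reached the filter mainly or only through the group where they were high. In 143B 4 of the 5 mesenchymal markers tested fell, and the summed level of that list was 1390 to 1820 FPKM in NC and 502 to 793 FPKM under sgNAT10. In HOS 4 of 7 rose, with sums of 1380 to 1580 FPKM in NC and 1730 to 1790 FPKM in the libraries labelled sgNAT10. Epithelial markers summed to 2.49 to 5.20 FPKM in 143B and to 20.4 to 23.3 in HOS, where most was EPCAM. KRT19 was called lower in both lines (log2 -1.29 in 143B and -1.43 in HOS) and CLDN4 in 143B (log2 -1.03). These calls passed the filter only through the controls, and EPCAM was called in neither line. The part of these shifts in the results below was not tested, and in bulk RNA fewer cells of a type and less RNA per cell cannot be told apart.

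The RNA of the factors differed widely in level. EIF5A, a hypusine-bearing factor that relieves stalled ribosomes, EIF4A1, the main helicase of cap-dependent initiation, and EIF6, which keeps the large ribosomal subunit apart from the small one, made up 46.0% to 52.6% of the summed FPKM of the members in the 143B libraries. In HOS that share was 29.2% to 31.3%. In the 143B controls EIF5A led with 2090 ± 265 FPKM (SD, n = 2), then EIF4A1 with 969 ± 80.6, EIF6 with 665 ± 201 and EIF3G with 519 ± 120. EIF6 and EIF3G did not differ beyond their spread, while EIF5A and EIF4A1 did. In the HOS controls EIF4A1 led with 1200 ± 22.4 FPKM, ahead of EIF5A with 877 ± 99.9 and EIF3E with 503 ± 27.9. The cap-binding protein gene EIF4E lay near the bottom in both lines, at 3.60 ± 0.856 FPKM in the 143B controls (rank 44 of 46) and 12.4 ± 0.856 in the HOS controls (rank 42 of 47). EIF5A2, EIF4E3 and EIF5AL1, with EIF2S3B in HOS, stood under 6 FPKM in every library. Together the members took 1.16% to 1.26% of the listed FPKM in the 143B controls and 1.19% to 1.21% under sgNAT10, so their total share overlapped between labels. In HOS the share was 1.35% and 1.33% in the controls and 1.48% and 1.47% in the libraries labelled sgNAT10, without overlap.

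The first transcribed bases of several members are shown because an mRNA that starts with a C followed by a run of C and T, a terminal oligopyrimidine start, belongs to a class whose translation follows growth signals, as most ribosomal protein mRNAs do. The windows come from RefSeq on GRCh38.p14, hold 10 bases before the annotated start and 20 from it on, and are written 5′ to 3′ on the gene's strand. A run from the start of at least 5 bases, C first and then only C or T, is in capitals. Symbols matched for 40 of 47 members, and no window was used for EIF2S2, EIF3A, EIF3CL, EIF3E, EIF3G, EIF3H or EIF3L.
EIF3F (chr11:7987327-7987356, plus strand): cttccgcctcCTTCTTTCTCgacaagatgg
EIF3D (chr22:36529147-36529176, minus strand): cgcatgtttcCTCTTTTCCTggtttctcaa
EIF2A (chr3:150546777-150546806, plus strand): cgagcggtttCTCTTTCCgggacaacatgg
EIF3K (chr19:38619178-38619207, plus strand): tttccaccacCTCTTCCTgttcccgtcctt
EIF2S3 (chrX:24054946-24054975, plus strand): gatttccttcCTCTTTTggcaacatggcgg
EIF2D (chr1:206612446-206612475, minus strand): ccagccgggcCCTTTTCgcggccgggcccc
EIF3M (chr11:32583821-32583850, plus strand): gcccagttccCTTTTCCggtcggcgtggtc
EIF4A2 (chr3:186783567-186783596, plus strand): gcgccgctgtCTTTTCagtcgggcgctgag
EIF4B (chr12:53006446-53006475, plus strand): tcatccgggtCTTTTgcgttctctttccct
EIF2S1 (chr14:67360318-67360347, plus strand): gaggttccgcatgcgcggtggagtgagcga
EIF3J (chr15:44537137-44537166, plus strand): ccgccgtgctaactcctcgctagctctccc
EIF1AX (chrX:20141819-20141848, minus strand): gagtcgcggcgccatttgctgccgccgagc
EIF5B (chr2:99337379-99337408, plus strand): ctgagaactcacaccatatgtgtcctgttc

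The last 4 windows are from genes that rose in 143B and fell in HOS, and hold no such start. EIF3M, which had the same pair of directions, does hold one, and EIF2S2 and EIF3E, which had it too, are without a window. In all, 10 of the 40 members with a window (25%) had a C/T start at an annotated start, the tenth being EIF2S3B, against 5.14% of 27305 genes in the RefSeq promoter table and 69.6% of 69 ribosomal protein genes there. The hexamer CACGTG, which reads the same on both strands and is bound by MYC among others, was found in the 300 bases around a start (250 before, 50 after) of 10 of 40 members (25%), among them EIF4E, EIF4G1, EIF4B and EIF4H, and of 8.77% of all genes.

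In 143B, 12 of 46 members were called higher under sgNAT10, EIF5A2 among them, and 5 lower. These 17 are 37.0% of the members, beside 38.3% of all genes tested, so the share called lay near that of the table. By direction, 26.1% of members were called higher, beside 12.9% of all genes, and 10.9% lower, beside 25.4%. The median change was 0.06 for the members and -0.25 for all 11419 genes. Rescaled to a common sum of listed FPKM, 7 members were higher and 11 lower, beside 853 higher and 3779 lower of all genes. Without sgNAT10 replicate 2, 7 were higher and 5 lower, without sgNAT10 replicate 1, 8 and 2, and without NC replicate 1, 11 and 10. After length and GC correction 17 were higher and 11 lower. Both libraries of sgNAT10 lay above both of NC for 18 members and below them for 13, beside 66.8% of all genes.

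In HOS, 15 of 47 members rose and 16 fell in the libraries labelled sgNAT10. These 31 are 66.0% of the members, beside 68.5% of all genes. Higher calls covered 31.9% of members, beside 45.5% of all genes, and lower calls 34.0%, beside 23.0%. The median was -0.01 for the members and 0.19 for all 11957 genes. The changes were smaller than in 143B, between -0.75 and 1.0 on the log2 scale against -3.28 to 2.01. Without EIF3C and its copy EIF3CL the 143B range was -1.54 to 2.01. With the spread shared by all 8 libraries, 5 members stayed higher (EIF1, EIF3F, EIF4A3, EIF4E3 and EIF4G1) and 1 lower (EIF2D), so the HOS calls of the others rest on the spread within HOS. Rescaled to a common sum 23 were higher and 8 lower, beside 7116 higher and 1698 lower of all genes. Under median-ratio scaling 10 were higher and 25 lower, beside 3728 and 4050 of all genes. After length and GC correction 13 were higher and 24 lower, and without sgNAT10 replicate 1, 10 were higher and 8 lower. Both libraries labelled sgNAT10 lay above both of NC for 19 members and below them for 22, beside 83.1% of all genes.

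**Figure D1:**
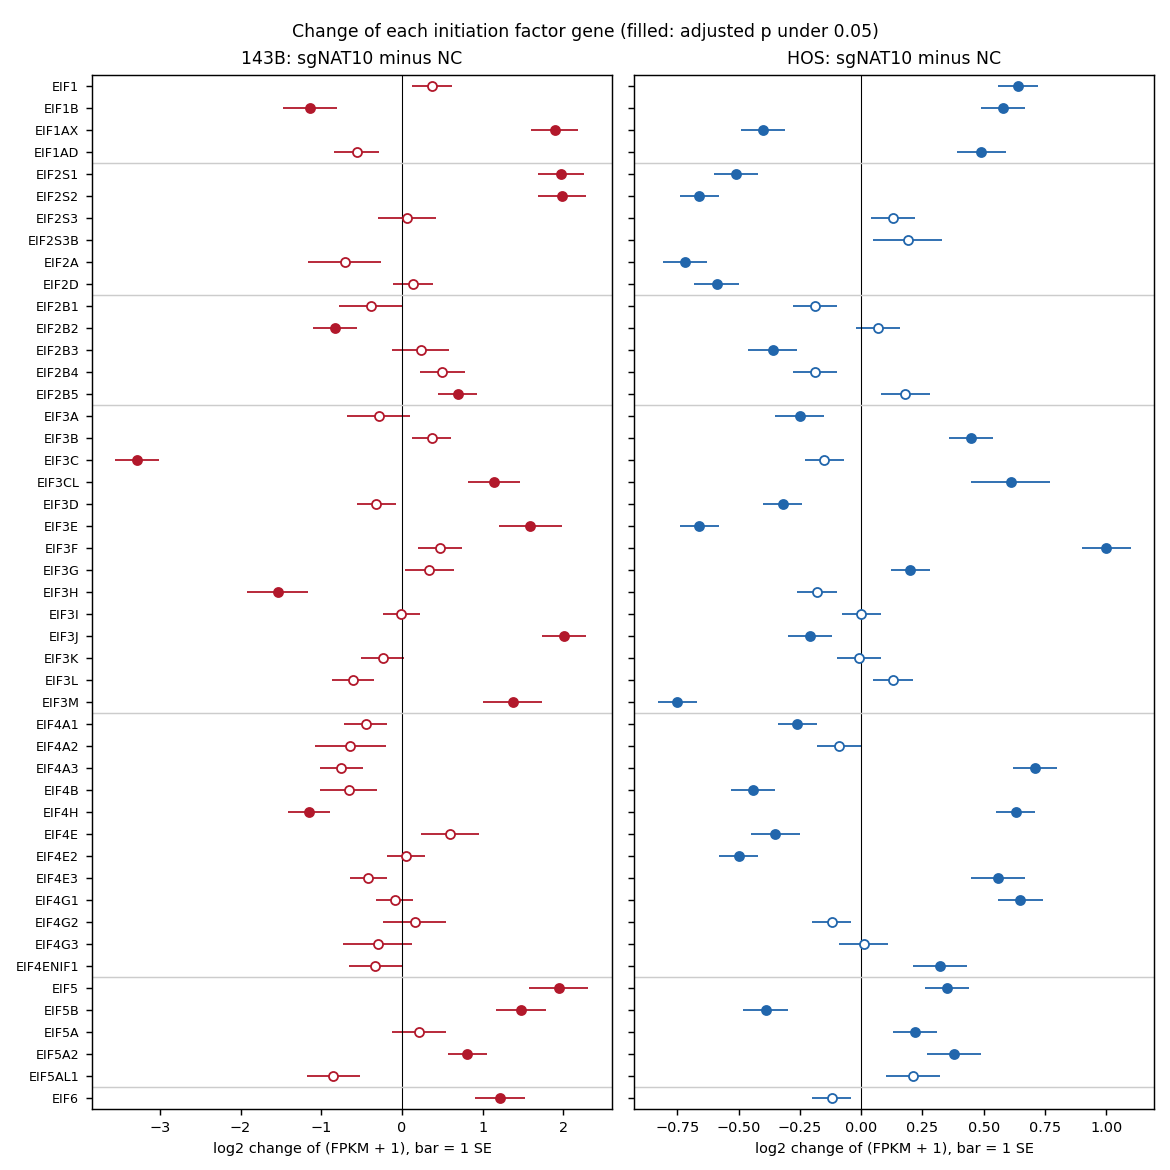
Log2 change of each member, sgNAT10 minus NC, in 143B (left) and HOS (right), with bars of 1 standard error and filled points for adjusted p under 0.05; grey lines separate the complexes, and the horizontal scales differ. EIF2S1, EIF2S2, EIF3J and EIF1AX lie near 2 in 143B and below 0 in HOS.

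The alpha and beta subunit genes of eIF2 moved together, upward in 143B and downward in HOS. The gamma subunit gene was not called in the main fit of either line. EIF2S1, which encodes the alpha subunit that stress kinases phosphorylate, measured 22.0 and 29.3 FPKM in the 143B controls against 85.7 and 122 under sgNAT10 (log2 1.97, SE 0.28, adjusted p = 0.002). EIF2S2, the beta subunit, stood at 56.4 and 100 FPKM and then at 280 and 321 (log2 1.98, SE 0.30, adjusted p = 0.0025). Both genes were several-fold higher, with no overlap between labels, and both calls held under each alternative tried. EIF2S3, the gamma subunit that holds GTP and the tRNA, measured 15.4 and 29.2 FPKM in the controls against 18.1 and 27.3 under sgNAT10 (log2 0.06, adjusted p = 0.91), with overlapping libraries. In HOS, EIF2S1 fell from 97.1 and 87.0 FPKM to 62.7 and 66.3 (log2 -0.51, SE 0.09, adjusted p = 1.1e-04). EIF2S2 fell from 354 and 348 FPKM to 221 and 221 (log2 -0.66, SE 0.08, adjusted p = 2.1e-06). EIF2S3 measured 104 and 96.8 FPKM in the HOS controls against 111 and 109 in the libraries labelled sgNAT10 (log2 0.13, adjusted p = 0.19), without overlap. It was called higher in HOS under 4 of 16 alternatives and stood at -0.10 under median-ratio scaling. Both HOS calls were lost with the spread shared by all libraries (adjusted p = 0.13 for EIF2S1 and 0.087 for EIF2S2). EIF2S3 shares 22.7% of its 50-base transcript words with its copy EIF2S3B, so the value of the gamma subunit is less certain than those of the others.

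Ratios taken within a library do not depend on its scaling. EIF2S1 to EIF2S3 was 1.43 and 1.0 in the 143B controls and 4.74 and 4.49 under sgNAT10. EIF2S2 to EIF2S3 was 3.66 and 3.42, and then 15.5 and 11.8. In HOS the same ratios went the other way, from 0.933 and 0.899 to 0.567 and 0.607 for EIF2S1, and from 3.40 and 3.59 to 2.0 and 2.02 for EIF2S2. Alpha and beta kept close to each other: EIF2S2 to EIF2S1 was 2.56 and 3.42 in the 143B controls and 3.27 and 2.62 under sgNAT10, which overlap. In HOS it was 3.64 and 4.0 and then 3.52 and 3.33. An exact two-sided permutation test of such a ratio, with 2 libraries per label, cannot go below p = 0.33.

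EIF2A and EIF2D carry the name of eIF2 but are separate proteins that can deliver initiator or other tRNAs. EIF2A fell in HOS from 127 and 118 FPKM to 73.3 and 74.5 (log2 -0.72, SE 0.09, adjusted p = 2.1e-06), and that call was lost with the shared spread (adjusted p = 0.22). EIF2D fell in HOS from 40.3 and 39.5 FPKM to 27.5 and 25.1 (log2 -0.59, SE 0.09, adjusted p = 3.9e-05). Neither was called in 143B. There EIF2A measured 18.4 and 43.8 FPKM in the controls against 11.8 and 24.4 under sgNAT10 (log2 -0.71, adjusted p = 0.25). It was called lower there under 3 of 15 alternatives, and its difference between lines was 0.01 (joint fit, adjusted p = 0.99). EIF2D measured 28.4 and 30.2 FPKM in the 143B controls and 31.3 and 33.4 under sgNAT10. The copy EIF2S3B stayed at 1.93 to 3.09 FPKM in HOS.

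The genes of eIF2B, the exchange factor of eIF2, did not move as a group. In 143B, EIF2B5, the catalytic epsilon subunit, measured 49.6 and 42.1 FPKM in the controls against 74.4 and 73.8 under sgNAT10 (log2 0.69, SE 0.24, adjusted p = 0.04998), which lies at the threshold and was lost under 10 of 15 alternatives. EIF2B2, the beta subunit, stood at 39.9 and 43.5 FPKM and then at 19.3 and 27.4 (log2 -0.83, SE 0.27, adjusted p = 0.042), a call lost under 6 of 15 alternatives. The ratio of EIF2B5 to EIF2B2 was 1.24 and 0.967 in the 143B controls and 3.85 and 2.69 under sgNAT10. In HOS it overlapped between labels, at 0.451 and 0.498 and then 0.549 and 0.480. The HOS test called EIF2B3, the gamma subunit, lower (23.8 and 24.0 FPKM, then 18.3 and 18.5; log2 -0.36, adjusted p = 0.0031) and no other eIF2B gene. That call was lost under 4 of 16 alternatives.

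EIF1B and EIF1AX moved in opposite directions within each line. EIF1AX, the X-linked gene for eIF1A, which steadies the scanning ribosome, rose in 143B from 7.98 and 11.1 FPKM to 37.2 and 38.0 (log2 1.89, SE 0.29, adjusted p = 0.0024). In HOS it fell from 63.6 and 56.2 FPKM to 44.0 and 46.3 (log2 -0.40, SE 0.09, adjusted p = 0.0012), a call lost when rescaled to a common sum (adjusted p = 0.075), with the shared spread (0.17) and without sgNAT10 replicate 1 (0.059). EIF1, the guardian of start codon choice, rose in HOS from 187 and 208 FPKM to 309 and 308 (log2 0.64, SE 0.08, adjusted p = 4.8e-06). In 143B it measured 360 and 352 FPKM in the controls against 422 and 504 under sgNAT10 (log2 0.37, adjusted p = 0.27), without overlap and without a call. Its paralog EIF1B fell in 143B, from 27.2 and 37.4 FPKM to 10.6 and 18.0 (log2 -1.14, SE 0.33, adjusted p = 0.025, and 0.25 without sgNAT10 replicate 1). EIF1B rose in HOS, from 29.2 and 31.8 FPKM to 45.2 and 47.1 (log2 0.58, SE 0.09, adjusted p = 3.9e-05, and 0.13 with the shared spread). EIF1 and EIF1B share no 50-base transcript word, and their ratio in 143B was 13.3 and 9.41 in the controls and 39.7 and 28.0 under sgNAT10, while in HOS it was 6.40 and 6.52 in the controls and 6.85 and 6.54 in the libraries labelled sgNAT10. EIF1AD, a nuclear protein with an eIF1A domain, was called higher in HOS alone (log2 0.49, adjusted p = 3.3e-04) and stood at -0.56 in 143B (adjusted p = 0.15).

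EIF5, the activator of the GTPase of eIF2, rose in both lines. In 143B it went from 15.7 and 35.3 FPKM to 80.7 and 108 (log2 1.94, SE 0.37, adjusted p = 0.005), and in HOS from 63.7 and 56.2 FPKM to 75.6 and 77.2 (log2 0.35, SE 0.09, adjusted p = 0.0029). The HOS call was lost under median-ratio scaling (adjusted p = 0.28), with the shared spread (0.45) and without either library labelled sgNAT10 (0.054 and 0.074). EIF5B, the GTPase of subunit joining, rose in 143B from 10.7 and 16.3 FPKM to 32.8 and 45.4 (log2 1.48, SE 0.31, adjusted p = 0.0072, and 0.065 without sgNAT10 replicate 2). In HOS it fell from 50.02 and 45.98 FPKM to 35.4 and 37.4 (log2 -0.39, SE 0.09, adjusted p = 0.0013), a call lost when rescaled to a common sum (0.092), with the shared spread (0.26) and without sgNAT10 replicate 1 (0.072). EIF5A, the most abundant member in 143B, measured 2275 and 1899 FPKM in the controls against 2740 and 2104 under sgNAT10 (log2 0.21, adjusted p = 0.65). In HOS it rose from 807 and 948 FPKM to 1031 and 1012 (log2 0.22, adjusted p = 0.029), a call lost under 7 of 16 alternatives. The paralog EIF5A2 had low levels, 0.80 and 0.85 FPKM in the 143B controls and 1.84 and 2.61 under sgNAT10. It entered the 143B test only through the group where it was high, so its call there (log2 0.81, adjusted p = 0.029) is favoured by the filter. In HOS it rose from 1.84 and 1.53 FPKM to 2.59 and 2.38 (log2 0.38, adjusted p = 0.0078, lost under 4 of 15 alternatives). EIF5AL1 shares 11.6% of its 50-base transcript words with EIF5A. It was not called in 143B (log2 -0.85, adjusted p = 0.07), where 6 of 15 alternatives called it lower, nor in HOS, and the difference between lines was called (log2 -1.06, adjusted p = 0.0033). EIF5AL1 passed the HOS filter only through the libraries labelled sgNAT10, so that difference is favoured by the filter.

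EIF6 rose in 143B from 807 and 523 FPKM to 1515 and 1490 (log2 1.21, SE 0.31, adjusted p = 0.016). The call was lost without either library labelled sgNAT10 (adjusted p = 0.097 and 0.094). In HOS it measured 215 and 228 FPKM in the controls against 205 and 202 in the libraries labelled sgNAT10 (log2 -0.12, adjusted p = 0.19).

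**Figure D2:**
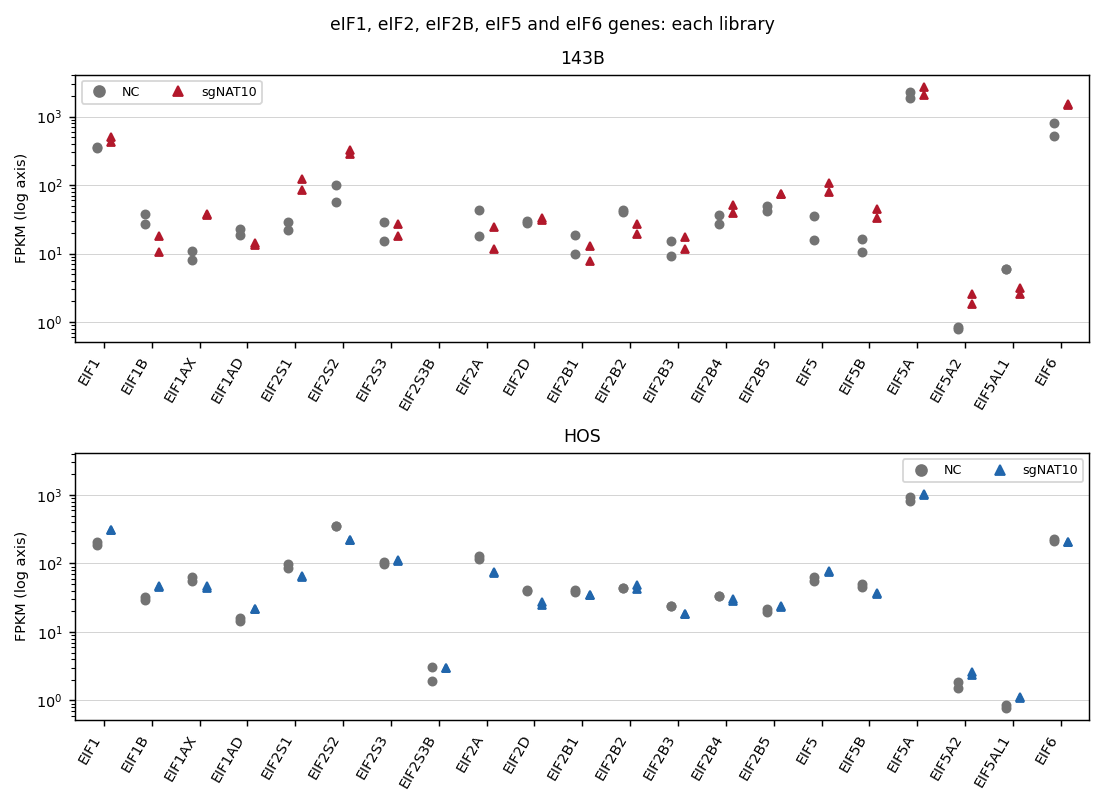
FPKM on a log axis of the eIF1, eIF2, eIF2B, eIF5 and eIF6 genes in each library of 143B (top) and HOS (bottom); grey circles are NC and coloured triangles sgNAT10. In 143B the sgNAT10 triangles of EIF1AX, EIF2S1, EIF2S2, EIF5, EIF5B and EIF6 stand above both control circles, and in HOS those of EIF1AX, EIF2S1, EIF2S2 and EIF5B stand below them.

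eIF3 is the largest factor, a complex that bridges the small ribosomal subunit and the eIF4 group, and its subunit genes did not move as a unit. Of 14 genes 4 rose and 2 fell in 143B (42.9%, beside 38.3% of all genes), and 4 rose and 5 fell in HOS (64.3%, beside 68.5%), shares near those of the tables. The largest fall and a rise in 143B belong to a pair that cannot be told apart well. EIF3C measured 157 and 227 FPKM in the 143B controls against 20.6 and 16.6 under sgNAT10 (log2 -3.28, SE 0.27, adjusted p = 7.6e-04). Its copy EIF3CL stood at 196 and 115 FPKM and then at 397 and 278 (log2 1.14, SE 0.32, adjusted p = 0.022), a call also lost when rescaled (0.064) and without NC replicate 2 (0.055) or sgNAT10 replicate 1 (0.13). The genes lie on chromosome 16, EIF3C from 28688558 to 28735730 (plus strand) and EIF3CL from 28379579 to 28403879 (minus strand, GRCh38), and 97.2% of the 50-base transcript words of EIF3CL occur in EIF3C. Summed, the pair measured 353 and 341 FPKM in the controls against 418 and 295 under sgNAT10 (log2 0.02, SE 0.27, adjusted p = 0.97). In HOS the sum was 223 and 248 FPKM and then 249 and 252 (log2 0.09, SE 0.08, adjusted p = 0.34), while EIF3CL alone was called higher (log2 0.61, adjusted p = 0.0029, and 0.24 when corrected for length and GC content). No change of the c subunit as a whole was detectable, and without the pair 11 of 44 members were higher and 4 lower in 143B.

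EIF3J, the loosely bound j subunit that sits near the decoding site, had the largest rise of all members in 143B, from 29.1 and 44.1 FPKM to 146 and 149 (log2 2.01, SE 0.27, adjusted p = 0.0017). In HOS it fell slightly, from 112 and 107 FPKM to 90.0 and 98.5 (log2 -0.21, SE 0.09, adjusted p = 0.038), a call lost under 8 of 16 alternatives and with a value of 0.07 after correction for length and GC content. EIF3E, the e subunit, rose in 143B from 57.6 and 135 FPKM to 225 and 317 (log2 1.59, SE 0.39, adjusted p = 0.013, and 0.066 when rescaled to a common sum). It fell in HOS from 522 and 483 FPKM to 305 and 332 (log2 -0.66, SE 0.08, adjusted p = 3.9e-06, and 0.19 with the shared spread). EIF3M, the m subunit, followed the same course: from 52.7 and 89.6 FPKM to 129 and 250 in 143B (log2 1.37, SE 0.37, adjusted p = 0.019) and from 441 and 434 FPKM to 253 and 267 in HOS (log2 -0.75, SE 0.08, adjusted p = 6.7e-07). The 143B call of EIF3M was lost when rescaled (adjusted p = 0.092) and without sgNAT10 replicate 2 (0.10), and its HOS call with the shared spread (0.12).

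EIF3H, the h subunit, went down in 143B, from 67.4 and 131 FPKM to 23.5 and 42.3 (log2 -1.54, SE 0.38, adjusted p = 0.013), and held that call under each alternative tried. In HOS it measured 301 and 272 FPKM in the controls against 253 and 254 in the libraries labelled sgNAT10 (log2 -0.18, adjusted p = 0.068). EIF3F, the f subunit, was the member with the largest change in HOS, a rise from 122 and 149 FPKM to 279 and 263 (log2 1.0, SE 0.10, adjusted p = 2.4e-07), held under all 16 alternatives. In 143B it measured 407 and 410 FPKM in the controls against 480 and 665 under sgNAT10 (log2 0.47, adjusted p = 0.21). EIF3F and EIF3H belong together as the MPN-domain subunits of eIF3, and the ratio of EIF3F to EIF3H went from 6.04 and 3.12 to 20.4 and 15.7 in 143B, and from 0.403 and 0.548 to 1.11 and 1.03 in HOS. This ratio was higher in all 4 libraries labelled sgNAT10 than in the controls of their line.

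EIF3B, a core subunit, rose in HOS from 117 and 130 FPKM to 170 and 167 (log2 0.45, adjusted p = 2.0e-04, and 0.24 when corrected for length and GC content), as did EIF3G (log2 0.20, adjusted p = 0.044, lost under 7 of 16 alternatives and -0.03 under median-ratio scaling). EIF3D, the subunit with a cap-binding pocket of its own, fell in HOS from 201 and 195 FPKM to 160 and 158 (log2 -0.32, adjusted p = 0.0024), and EIF3A, the largest scaffold subunit, by a log2 change of -0.25 (adjusted p = 0.025). Those calls were lost under 5 and 7 of 16 alternatives. EIF3I, EIF3K and EIF3L were called in neither line, and EIF3I stood at 140 to 149 FPKM in all 143B libraries and 131 to 143 in all HOS libraries. EIF3L stood at -0.61 in 143B (adjusted p = 0.096), without overlap and called lower under 4 of 15 alternatives. Its difference between lines was called (log2 -0.74, adjusted p = 0.048). Across the 12 subunit genes other than the c pair, the standard deviation of log2 FPKM was 1.51 and 1.09 in the 143B controls and 1.58 and 1.46 under sgNAT10, which overlap. In HOS it was 0.85 and 0.83 in the controls and 0.73 and 0.74 in the libraries labelled sgNAT10.

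**Figure D3:**
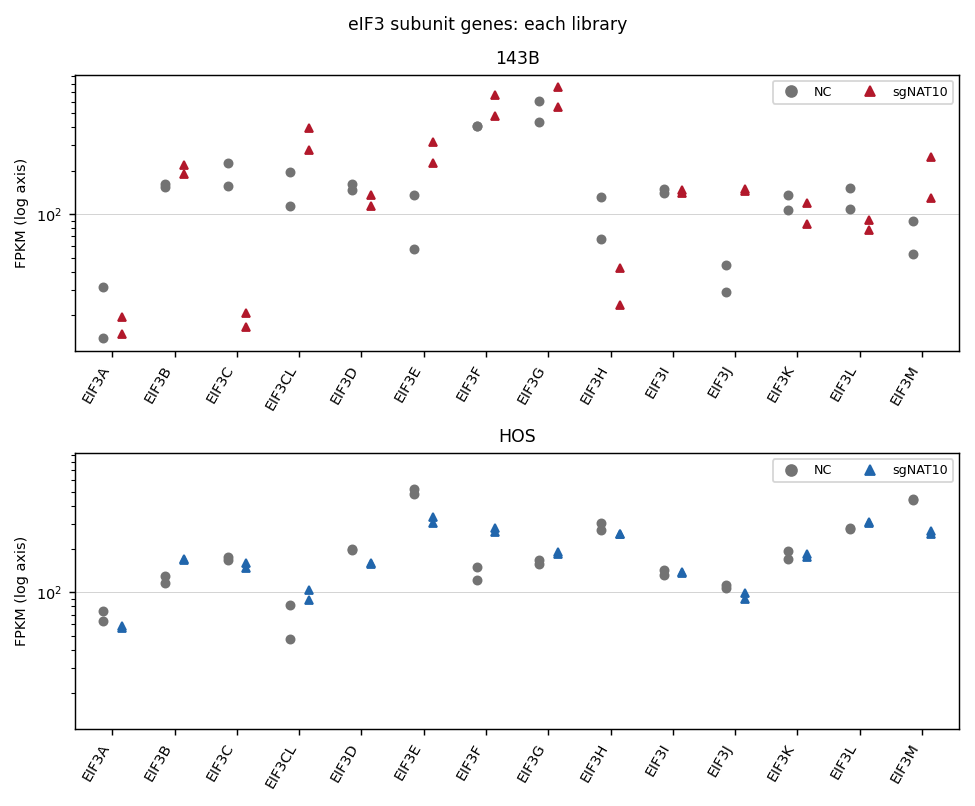
FPKM on a log axis of the 14 eIF3 subunit genes in each library of 143B (top) and HOS (bottom); grey circles are NC and coloured triangles sgNAT10. EIF3C is far lower and EIF3CL higher under sgNAT10 in 143B, EIF3E, EIF3J and EIF3M stand above the controls in 143B and below them in HOS, and EIF3F stands above them in both lines.

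In the eIF4 group 1 of 12 genes was called in 143B (8.33%, beside 38.3% of all genes). That count depends on the model. With a replicate block, a pairing the labels do not give, EIF4A1, EIF4A2, EIF4A3, EIF4B, EIF4E and EIF4E3 were also called in 143B. Of all genes 2737 were then higher and 4915 lower. In HOS 5 rose and 4 fell (75.0%, beside 68.5%). The counts of the lines were not tested against each other. EIF4H, a cofactor of the helicase, fell in 143B from 101 and 136 FPKM to 46.8 and 58.5 (log2 -1.15, SE 0.26, adjusted p = 0.0098), a call lost under median-ratio scaling (adjusted p = 0.089) and without sgNAT10 replicate 1 (0.081). In HOS it rose from 102 and 109 FPKM to 160 and 168 (log2 0.63, SE 0.08, adjusted p = 6.5e-06, and 0.054 with the shared spread). EIF4B, the other cofactor of the helicase, fell in HOS from 243 and 215 FPKM to 168 and 169 (log2 -0.44, SE 0.09, adjusted p = 2.6e-04). The ratio of EIF4H to EIF4B in HOS went from 0.418 and 0.508 to 0.957 and 0.994. In 143B EIF4B measured 39.5 and 79.6 FPKM in the controls against 30.7 and 40.2 under sgNAT10 (adjusted p = 0.17).

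The helicase genes differed. EIF4A1 measured 912 and 1026 FPKM in the 143B controls against 656 and 769 under sgNAT10 (log2 -0.45, adjusted p = 0.23), lower without overlap but not called. It was called when rescaled (log2 -0.78, adjusted p = 0.039), under quantile normalization (-0.90, 0.0011), with a replicate block (0.034) and with the shared spread (0.041). In HOS it fell from 1188 and 1220 FPKM to 988 and 1027 (log2 -0.26, SE 0.08, adjusted p = 0.007), but its value was 0.13 under quantile normalization (adjusted p = 0.042) and -0.04 when rescaled (0.55), and the call was lost without sgNAT10 replicate 1 (0.055). EIF4A2, its paralog, was called in neither line, and the ratio of EIF4A1 to EIF4A2 overlapped between labels in 143B, at 14.3 and 8.23 and then 17.8 and 8.78. EIF4A3, a helicase of the exon junction complex and not of initiation, rose in HOS from 51.4 and 56.8 FPKM to 86.0 and 91.8 (log2 0.71, SE 0.09, adjusted p = 4.0e-06). In 143B it measured 55.4 and 73.6 FPKM in the controls against 32.7 and 42.8 under sgNAT10 (log2 -0.75, adjusted p = 0.055). It was called lower there under 5 of 15 alternatives. Among them were a replicate block (adjusted p = 5.6e-05), rescaling (0.023), the shared spread (0.013) and length and GC correction (0.035). Without NC replicate 1 its value was -0.96.

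Among scaffolds, EIF4G1, which ties the cap-binding protein to the helicase and to eIF3, rose in HOS from 65.4 and 66.6 FPKM to 109 and 99.8 (log2 0.65, SE 0.09, adjusted p = 6.4e-06). After correction for length and GC content its HOS value was 0.02 (adjusted p = 0.73), and in 143B the same correction moved it from -0.09 (adjusted p = 0.78) to 0.61 (adjusted p = 0.013). EIF4G2, a scaffold without the site for eIF4E, measured 77.3 and 171 FPKM in the 143B controls against 101 and 165 under sgNAT10, and in HOS at 315 and 278 and then 268 and 276. Neither it nor EIF4G3 was called. The cap-binding gene EIF4E fell in HOS from 13.0 and 11.8 FPKM to 9.26 and 9.63 (log2 -0.35, adjusted p = 0.0065), as did EIF4E2, a homolog that can repress translation, from 119 and 122 FPKM to 83.8 and 85.3 (log2 -0.50, adjusted p = 5.7e-05). EIF4E3, another homolog, and EIF4ENIF1, which carries eIF4E into the nucleus, were called higher in HOS (log2 0.56 and 0.32). EIF4E and EIF4ENIF1 lost their HOS calls under 4 and 6 of 16 alternatives, and EIF4ENIF1 stood at -0.08 after length and GC correction. In 143B, EIF4E measured 2.99 and 4.20 FPKM in the controls against 4.79 and 7.17 under sgNAT10 (log2 0.59, adjusted p = 0.22). The ratio of EIF4G1 to EIF4E went from 5.04 and 5.66 to 11.8 and 10.4 in HOS and from 54.5 and 39.4 to 34.3 and 20.2 in 143B.

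**Figure D4:**
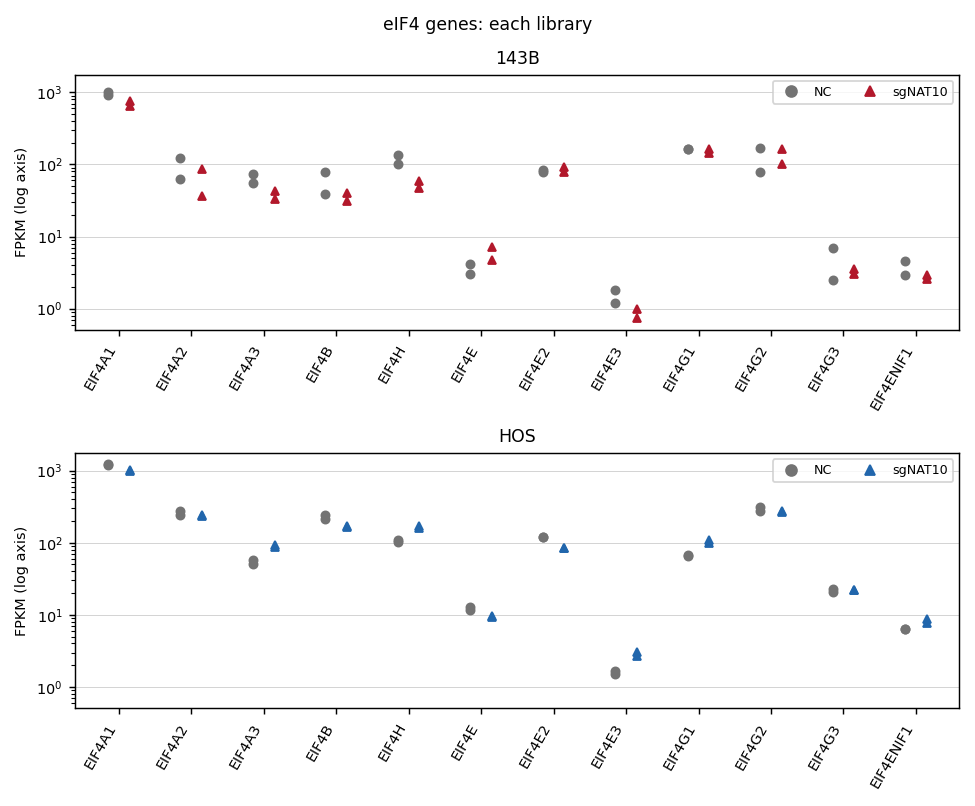
FPKM on a log axis of the 12 eIF4 genes in each library of 143B (top) and HOS (bottom); grey circles are NC and coloured triangles sgNAT10. EIF4H stands below the controls in 143B and above them in HOS, and EIF4A1 stands below the controls in both lines.

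Calls in opposite directions in the 2 lines were found among the members, as among all genes. Of 46 members tested in both, 12 were called in both separate fits: 7 rose in 143B and fell in HOS, 2 fell in 143B and rose in HOS, 3 rose in both and none fell in both. Over all 10655 genes tested in both lines, the corresponding shares were 3.63%, 15.7%, 3.39% and 2.73%. Of those genes 25.5% were called in both lines, a share near that of the members. The 7 were EIF2S1, EIF2S2, EIF1AX, EIF3E, EIF3J, EIF3M and EIF5B, the 2 were EIF1B and EIF4H, and the 3 were EIF5, EIF5A2 and EIF3CL. Of those 3, EIF5A2 passed the 143B filter only through sgNAT10, and EIF3CL summed with its copy EIF3C was called in neither line. A test of the difference itself, 143B change minus HOS change in a joint fit, called 22 of 46 members (47.8%), 11 in each direction, beside 49.1% of all genes (12.9% above and 36.2% below). EIF4E3 and EIF5AL1, among those below, each passed the filter of a line only through the group where it was high. The largest differences were 2.65 for EIF2S2 (SE 0.35, adjusted p = 4.1e-04), 2.48 for EIF2S1 (SE 0.31, adjusted p = 3.4e-04) and 2.29 for EIF1AX (SE 0.28, adjusted p = 2.9e-04). On the other side stood EIF4H at -1.78 (SE 0.28, adjusted p = 9.0e-04), EIF1B at -1.73 and EIF4A3 at -1.46, apart from EIF3C at -3.14. Rescaled to a common sum, 8 members differed upward and 18 downward, and after length and GC correction 20 and 7. Averaged over both lines, the change was 1.14 for EIF5 (SE 0.23, adjusted p = 0.0067), 0.90 for EIF3J and 0.74 for EIF3F. A call in that average need not be the same direction in each line. EIF1AX, EIF2S1, EIF2S2, EIF3J and EIF5B were called higher in the average and lower in HOS. In all, 13 members were called higher in the average and 3 lower, beside 13.1% and 17.6% of all genes. Without any of the 4 HOS libraries that count was 6 or 7 higher and 1 lower, and without 143B NC replicate 1 it was 13 and 12.

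**Figure D5:**
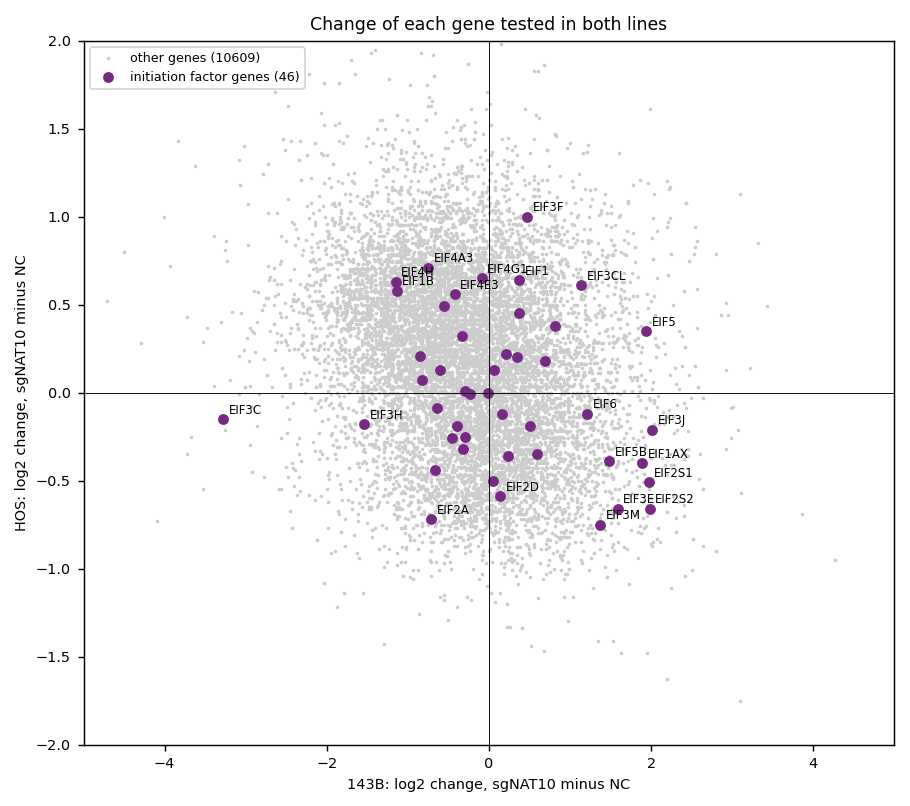
Log2 change under sgNAT10 in 143B (horizontal) against HOS (vertical) for 10655 genes tested in both lines, with the 46 members in purple and 10609 other genes in grey; 19 genes lie outside the axes. EIF2S1, EIF2S2, EIF3E, EIF3M, EIF1AX, EIF3J and EIF5B sit at the lower right, and EIF5 at the upper right.

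The members with a C/T start in the windows above did not share a direction. Their counts stand beside 38.3% of all genes called in 143B, and 45.5% called higher and 23.0% lower in HOS. In 143B, 1 of 9 was called, EIF3M, with a median change of -0.24, while of 30 members whose windows lack such a start 8 rose and 4 fell, with a median of 0.11. In HOS, 5 of 10 fell and 1 rose among those with a C/T start (EIF2A, EIF2D, EIF3D, EIF3M and EIF4B against EIF3F), with a median of -0.21, and 12 rose and 8 fell of the 30 others, with a median of 0.04. Ribosomal protein genes, most of which carry such starts, took 25.4% to 27.0% of the listed FPKM in the 143B controls and 40.6% to 41.9% under sgNAT10, and 27.8% to 28.2% and then 20.4% to 21.1% in HOS.

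Genes that work beside the initiation factors were taken from 5 lists, whose counts stand beside 12.9% of all genes called higher and 25.4% lower in 143B, and 45.5% higher and 23.0% lower in HOS. With the spread shared by all 8 libraries the HOS calls of PABPC1 (adjusted p = 0.20), DHX9 (0.063), MCTS1 (0.21), EIF2AK4 (0.25), EEF2 (0.062), EEF1A1 (0.63), GFM1 (0.078), ETF1 (0.51), GSPT1 (0.10) and MTRF1L (0.079) were lost. Of 16 tested partners at the cap and the poly(A) tail 4 rose and 1 fell in 143B, and of 17 in HOS 8 rose and 3 fell. The poly(A)-binding proteins were called higher in both lines: PABPC1 rose from 156 and 341 FPKM to 917 and 568 in 143B (log2 1.64, adjusted p = 0.013, and 0.056 when rescaled) and from 365 and 363 FPKM to 574 and 558 in HOS (log2 0.63, adjusted p = 2.9e-06). PABPC4 rose by 1.04 and 0.88 on the log2 scale, the former lost under 4 of 15 alternatives. EIF4EBP3, which binds eIF4E, was listed at 0.46 and 0.00 FPKM in the 143B controls and at 10.3 and 10.2 under sgNAT10, and entered the test only through the latter. Of 8 genes for tRNA delivery, start control and recycling 2 rose and 1 fell in 143B, and 1 rose and 5 fell in HOS. The helicase gene DHX9 fell in both (log2 -1.26, adjusted p = 0.029, and -0.96, adjusted p = 3.0e-07), the 143B call being lost without NC replicate 2 (0.094) or sgNAT10 replicate 1 (0.16). DENR, a recycling factor, was called in 143B (log2 1.23, adjusted p = 0.028, lost under 3 of 15 alternatives) and stood at 0.21 in HOS (adjusted p = 0.057, called higher under 5 of 16), while LARP1, which binds mRNAs with C/T starts, was called in HOS (log2 0.80) and stood at 0.53 in 143B (adjusted p = 0.20, called higher under 4 of 15 alternatives). MCTS1, the partner of DENR, rose in 143B (log2 1.52, adjusted p = 0.0084, and 0.13 without sgNAT10 replicate 2) and fell in HOS (log2 -0.48, adjusted p = 0.0011, lost under 3 of 16 alternatives).

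Among the kinases and phosphatase subunits that act on eIF2 alpha, 1 of 10 rose and 2 fell in 143B, and 6 of 11 rose and 1 fell in HOS. EIF2AK4, the kinase GCN2 that senses amino acid shortage, rose in 143B from 3.45 and 8.02 FPKM to 16.2 and 21.5 (log2 1.63, adjusted p = 0.013) and in HOS from 23.1 and 19.9 FPKM to 32.3 and 30.5 (log2 0.53, adjusted p = 1.9e-04). Both calls were lost under 2 alternatives, among them sgNAT10 replicate 2 left out in 143B (0.094) and length and GC correction in HOS (0.12). PPP1R15B, a phosphatase subunit that reverses the phosphorylation, rose in HOS (log2 1.35, adjusted p = 2.6e-08) and stood at 0.02 in 143B. EIF2AK2, the kinase PKR, stood at a log2 change of 1.09 in 143B (adjusted p = 0.06), which 8 of 15 alternatives called higher, and at 0.22 in HOS (adjusted p = 0.062, called under 4 of 16). Of 14 elongation genes 1 rose and 2 fell in 143B, and 6 rose and 7 fell in HOS. EEF2, the translocation factor, fell in 143B from 2838 and 2481 FPKM to 1008 and 743 (log2 -1.62, adjusted p = 0.0052, 0.053 under median-ratio scaling and 0.12 without sgNAT10 replicate 2) and rose in HOS from 739 and 833 FPKM to 1216 and 1134 (log2 0.58, adjusted p = 1.4e-05). EEF1A1, which delivers aminoacyl-tRNA, stood at -0.92 in 143B (adjusted p = 0.076, called lower under 6 of 15 alternatives) and fell in HOS (log2 -0.19, adjusted p = 0.036, lost under 7 of 16 alternatives, and 0.58 under quantile normalization), and the mitochondrial factor GFM1 fell in HOS (log2 -0.84). Of 10 genes in the list of termination factors 2 rose and 1 fell in 143B, and 2 rose and 7 fell in HOS. That list also holds genes of recycling and ribosome rescue and the mitochondrial initiation factor genes MTIF2 and MTIF3. MTIF2 and MTIF3 were among those that fell in HOS (log2 -0.84 and -0.90) and were not called in 143B. ETF1, the release factor that reads stop codons, rose in 143B (log2 1.17, adjusted p = 0.024, lost under 3 of 15 alternatives) and fell in HOS (log2 -0.26, adjusted p = 0.013, lost under 5 of 16), and its partner GSPT1 rose in HOS (log2 0.73, adjusted p = 3.1e-06). MTRF1L, a mitochondrial release factor, rose in 143B (log2 1.59, adjusted p = 0.012, lost under 2 of 15 alternatives) and fell in HOS (log2 -0.85, adjusted p = 4.1e-06).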

How the data were processed

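The authors deposited FPKM values, 1 table per cell line. Per the submitters' processing notes, Bowtie2, RSEM, DESeq2 and GRCh38 were named, without versions or roles, and the sources used here give no annotation version. FPKM are not counts, so genes reaching 1 FPKM in 2 or more of the 4 libraries in their table entered tests on log2(FPKM + 1) with limma 3.58.1 in R 4.3.3 (two-sided, moderated along an intensity trend, adjusted by Benjamini-Hochberg, threshold 0.05). The log understates changes of low genes. Lines were fitted separately, and a joint fit of 4 group means over 10655 genes gave the difference and the mean of both lines. The fits were tested on simulated data. Members, lists and the rule for named genes were chosen with earlier results of these data known. The rule names the 12 largest called changes per line, the 5 largest differences between lines each way, the 2 most abundant members of each complex and 3 genes of each partner list. Other members and MCTS1 were added after their values were seen so that every complex is accounted for. Alternatives were other pseudocounts, filters, scalings and moderation, a replicate block, a shared spread and leaving out each library. Correction for transcript length and GC content (spline with 4 degrees of freedom), a crossed block and the sum of EIF3C and EIF3CL were chosen after seeing the data. Lengths, positions and shared words came from GENCODE on GRCh38, matching 97.9% of 143B and 98.0% of HOS symbols.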

Additional observations from a re-analysis of the deposited data

Results flagged for a closer look

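The change under sgNAT10 differed between 143B and HOS for 22 of 46 members, by limma in the joint fit of both lines (143B change minus HOS change, log2). That is 47.8% of members, near the 49.1% of all genes. EIF2S2 (2.65), EIF2S1 (2.48), EIF1AX (2.29), EIF3E (2.24), EIF3J (2.22), EIF3M (2.12), EIF5B (1.87), EIF5 (1.59), EIF6 (1.33), EIF4E (0.95) and EIF2D (0.72) lay above 0. EIF3C (-3.14), EIF4H (-1.78), EIF1B (-1.73), EIF4A3 (-1.46), EIF3H (-1.37), EIF5AL1 (-1.06), EIF1AD (-1.05), EIF4E3 (-0.98), EIF2B2 (-0.90), EIF4G1 (-0.75) and EIF3L (-0.74) lay below 0. The value of EIF3C is uncertain, since it shares most of its sequence with EIF3CL, and that of EIF5AL1 since it shares sequence with EIF5A. EIF5AL1 passed the HOS filter only through the libraries labelled sgNAT10, and EIF4E3 the 143B filter only through the controls. The differences of both are thus favoured by the filter.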

How the results depend on the processing

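Counts of called members, as higher and lower, were 12 and 5 in 143B and 15 and 16 in HOS, and the difference between lines had 11 and 11. Rescaled to a common sum they were 7 and 11 in 143B, 23 and 8 in HOS and 8 and 18 for the difference, with 5 lower for the mean over both lines. Of all genes 853 were then higher and 3779 lower in 143B, and 7116 higher and 1698 lower in HOS. Under median-ratio scaling 3 members were lower in 143B, 25 in HOS and 6 for the difference, with 2413 of all genes higher in 143B. Quantile normalization gave 2797, and a filter at 5 FPKM 919 (fewer genes tested). With the shared spread 10 members were lower in 143B, and in HOS 5 were higher and 1 lower (1562 and 302 of all genes). After length and GC correction 11 members were lower in 143B, 20 and 7 differed between lines, 9 were lower in the mean and 3022 of all genes were higher in 143B.

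Median log2 changes moved as follows. Rescaled to a common sum, all genes stood at -0.54 in 143B and 0.37 in HOS, and members at 0.20 in HOS. By complex the values were -0.42 (eIF1), -0.19 (eIF2) and -0.17 (eIF3) in 143B. In HOS they were 0.74 (eIF1), -0.34 (eIF2), 0.02 (eIF2B), 0.13 (eIF3), 0.17 (eIF4) and 0.44 (eIF5). Under median-ratio scaling they were 0.18 (eIF1), 0.41 (eIF2) and 0.45 (eIF3) in 143B. In HOS they were -0.01 (all genes), -0.24 (members), 0.31 (eIF1), -0.77 (eIF2), -0.41 (eIF2B), -0.31 (eIF3), -0.26 (eIF4) and 0.10 (eIF5). Quantile normalization gave 0.49 (eIF2), 0.58 (eIF2B) and 0.04 (eIF3) in 143B. In HOS it gave 0.02 (all genes), 0.43 (eIF1), -0.43 (eIF2), -0.24 (eIF2B), 0.08 (eIF3), 0.12 (eIF4) and 0.12 (eIF5). After length and GC correction the values were 0.12 (eIF1) and 0.53 (eIF2) in 143B, and -0.01 (all genes), -0.13 (members), 0.44 (eIF1), -0.44 (eIF2), -0.14 (eIF4) and 0.10 (eIF5) in HOS. A pseudocount of 0.1 gave eIF5 1.31 in 143B and 0.35 in HOS, with all HOS genes at 0.22. A pseudocount of 5 gave eIF5 0.31 in 143B, eIF1 0.47 in HOS and all HOS genes 0.12. The filter at 5 FPKM gave HOS members -0.12, eIF4 -0.09 and all HOS genes 0.17.

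Leaving out each library gave ranges. In 143B, 7 to 11 members were higher and 2 to 10 lower, with 331 to 2025 of all genes higher and 1139 to 2897 lower. In HOS 8 to 22 members were lower. For the difference 5 to 13 lay below, and in the mean 6 to 14 were higher and 1 to 12 lower. Medians ranged over 0.09 to 0.50 (eIF2), -0.11 to 0.31 (eIF2B) and 0.03 to 0.19 (eIF3) in 143B. In HOS they ranged over 0.16 to 0.22 (all genes), 0.48 to 0.60 (eIF1), -0.11 to -0.06 (eIF3) and -0.12 to 0.04 (eIF4).

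Single genes changed sign as follows. Rescaled to a common sum these were EIF2D (-0.19), EIF4G2 (-0.17), EIF5A (-0.13), EIF2S3 (-0.26), EIF2B3 (-0.08), EIF4E2 (-0.28), PPP1R15B (-0.24) and GSPT1 (-0.16) in 143B, and EIF3C (0.06), EIF3H (0.03), EIF6 (0.09), EIF4G2 (0.09), EIF2B1 (0.02), EIF2B4 (0.02), EIF3K (0.20), EIF4A2 (0.12) and EEF1A1 (0.02) in HOS. Under median-ratio scaling these were EIF4G1 (0.19), EIF3I (0.27) and EIF3K (0.04) in 143B, and EIF2B5 (-0.04), EIF2B2 (-0.16), EIF3G (-0.03), EIF5A (-0.01), EIF2S3 (-0.10), EIF3I (-0.23), EIF3L (-0.10), EIF4G3 (-0.21) and DENR (-0.02) in HOS. Under quantile normalization they were EIF3G (-0.07), EIF5A (-0.19), EIF3A (0.05) and EIF3I (0.03) in 143B, and EIF3H (0.05), EIF6 (0.09), EIF4A1 (0.13), EIF4G2 (0.11), EIF2S3B (-0.09), EIF3K (0.14), EIF4A2 (0.16), EIF4G3 (-0.13), EIF5AL1 (-0.04), EIF4EBP3 (-0.08), EIF2AK2 (-0.01) and EEF1A1 (0.58) in HOS. After length and GC correction they were EIF4G1 (0.61), EIF2S3 (-0.03), EIF3D (0.12), EIF3I (0.16), EIF4ENIF1 (0.20), PPP1R15B (-0.07) and GSPT1 (-0.08) in 143B, and EIF3J (0.07), EIF2B5 (-0.11), EIF2B2 (-0.18), EIF3I (-0.03), EIF3L (-0.15), EIF4A2 (0.22), EIF4G3 (-0.37), EIF4ENIF1 (-0.08) and NAT10 (-0.08) in HOS. Summed with EIF3CL, EIF3C stood at 0.02 in 143B and 0.09 in HOS. With libraries left out, signs turned in 143B for EIF2B1 (-0.82 to 0.03), EIF2B3 (-0.11 to 0.57), EIF2S3 (-0.38 to 0.50), EIF3A (-0.86 to 0.27), EIF3I (-0.05 to 0.04), EIF3K (-0.48 to 0.00), EIF4E2 (-0.07 to 0.17), EIF4G2 (-0.40 to 0.73), EIF4G3 (-0.89 to 0.30), GSPT1 (-0.23 to 0.54) and PPP1R15B (-0.44 to 0.48). In HOS they turned for EIF2B2 (-0.01 to 0.15), EIF2S3B (-0.05 to 0.43), EIF3I (-0.06 to 0.06), EIF3K (-0.11 to 0.08), EIF4A2 (-0.19 to 0.00), EIF4EBP3 (-0.19 to 0.45) and EIF4G3 (-0.05 to 0.07). The cause was not tested.

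The labels do not say that replicate numbers pair libraries. Deviations of same-numbered libraries correlated at 0.605 in 143B and -0.106 in HOS. With a replicate block 7 of 12 eIF4 genes were called in 143B in place of 1 (EIF4H, EIF4A1, EIF4A2, EIF4A3, EIF4B, EIF4E and EIF4E3), 14 members were lower in 143B and 15 in the mean, and 2737 of all genes were higher and 4915 lower in 143B. A crossed pairing in HOS gave 15 lower in the mean. Read depth is unknown, so no counting interval is given.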
